A study of Saccharomyces cerevisiae with 6 samples.

Results

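The sites described here are alternative 3′ splice sites (3′SS) of budding yeast that end in G but lack the A before it, so that the last 2 intron bases are CG, GG or UG. They are called BG sites, B standing for any base but A. They were chosen from the junction tables by sequence: the annotated 5′SS, an alternative 3′SS whose last letter is G and whose middle letter is not A, and perfectly aligned overhangs of at least 10 nt upstream and 40 nt downstream in the best of 6 libraries. This gave 373 BG sites of 5274 junctions listed, in 179 introns, beside 282 YAG, 354 RAG and 492 non-G alternative 3′SS chosen in the same way (Y is C or U, R is A or G). Without the overhang rule 409 BG sites were listed. The smallest overhangs among the 373 were 11 nt upstream and 41 nt downstream, and the largest among the sites left out for each were 9 nt and 39 nt.

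The strains compared, both of BY4741 background, were prp18Δupf1Δ (prp18Δ::kanMX6, upf1Δ::HIS3MX6) with 3 libraries and upf1Δ (upf1Δ::HIS3MX6) with 3 libraries. Cells were grown in YPD to mid-log phase. Both strains carry the UPF1 deletion, which disables nonsense-mediated decay, so that transcripts with early stop codons are not removed by this pathway in either. The comparison asked which 3′SS are used when Prp18p is missing. The libraries held 791819 to 1250953 annotated junction reads in prp18Δupf1Δ and 1347936 to 1502384 in upf1Δ. The labels do not say whether replicates are separate cultures, and the p-values may therefore reflect technical spread alone. Replicate 1 of each strain stood apart in its annotated junction counts, with a chi-square per degree of freedom of 108 to 118 against its sister libraries, where replicates 2 and 3 gave 5.64 in prp18Δupf1Δ and 13.8 in upf1Δ. Over the BG sites the same measure was 1.07 to 1.78 for every pair of replicates.

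In the second step of splicing the spliceosome joins the upstream exon to a 3′SS that normally ends in AG and lies downstream of the branchpoint adenosine, whose consensus in yeast is UACUAAC. Prp18p is a second-step factor that works with Slu7p and sits near the catalytic centre while the 3′SS is docked. The A and the G of the 3′SS are recognised through contacts with the 5′SS and the branchpoint adenosine, and a pyrimidine or U-rich stretch before the site favours its use.

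The following stretches of the R64 genome (RefSeq copy) are shown because they carry the sites on which the results turn. Each runs 5′ to 3′ on the strand of the gene, from the branch site heptamer to 10 bases past whichever 3′SS lies further downstream. Capitals mark the branch site, the BG site and, where it is separate from the BG site and lies downstream of it, the annotated 3′SS. The bases are DNA letters, so that the UUG sites of the text read TTG here. The first 9 rose in prp18Δupf1Δ and lie close to the branchpoint, reach a high use or, in RPL32, end a long run of U, the next 3 lie at or just past the annotated site, and the last pair fell.
RAD14 ACG, chrXIII:666924-666967, minus strand: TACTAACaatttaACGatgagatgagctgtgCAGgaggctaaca
MUD1 AUG, chrII:479390-479444, plus strand: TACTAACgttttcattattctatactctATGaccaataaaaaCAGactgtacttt
MAF1 CUG, chrIV:458008-458055, minus strand: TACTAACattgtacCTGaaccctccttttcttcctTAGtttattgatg
RPL42A ACG, chrXIV:331796-331847, plus strand: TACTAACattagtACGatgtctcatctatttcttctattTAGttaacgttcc
RPS16B ACG, chrIV:307324-307380, minus strand: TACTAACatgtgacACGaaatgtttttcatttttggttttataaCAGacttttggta
PHO85 ACG, chrXVI:492909-492965, minus strand: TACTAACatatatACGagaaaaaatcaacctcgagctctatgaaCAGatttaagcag
RPL25 ACG, chrXV:80728-80784, plus strand: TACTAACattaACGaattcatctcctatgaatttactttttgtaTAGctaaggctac
YOS1 UUG, chrV:307800-307858, plus strand: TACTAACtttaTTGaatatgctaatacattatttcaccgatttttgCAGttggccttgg
RPL32 UUG, chrII:45934-45987, plus strand: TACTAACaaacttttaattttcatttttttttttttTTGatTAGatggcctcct
RPS9B AGG, chrII:604891-604938, plus strand: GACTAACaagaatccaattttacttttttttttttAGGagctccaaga
RPS24B CUG, chrIX:231944-232020, minus strand: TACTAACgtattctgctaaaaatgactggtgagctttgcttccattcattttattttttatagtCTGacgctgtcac
HMRA1 UGG, chrIII:293977-294013, plus strand: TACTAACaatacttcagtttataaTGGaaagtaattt
YSC84 UCG, chrVIII:138231-138286, minus strand: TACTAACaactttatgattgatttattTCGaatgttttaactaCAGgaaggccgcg
RPS10A CGG, chrXV:867512-867596, plus strand: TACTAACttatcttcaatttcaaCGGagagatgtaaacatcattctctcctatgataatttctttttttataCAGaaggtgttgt

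BG sites were seen more often in the absence of Prp18p. Of the 373 sites, 233, 217 and 194 had reads in the 3 prp18Δupf1Δ libraries, against 113, 135 and 128 in the 3 upf1Δ libraries, although the upf1Δ libraries held more annotated reads. The reads at BG sites numbered 1456, 1181 and 998 in prp18Δupf1Δ and 424, 491 and 521 in upf1Δ. The strains did not overlap in either measure. Over all junctions the order was the other way, with 2032, 1922 and 1848 listed in prp18Δupf1Δ and 2115, 2231 and 2442 in upf1Δ. A BG site enters the list through reads in any library, so the counts depend in part on the strain in which sites were seen. For tests a site needed at least 6 gapped reads over the 6 libraries, and 156 BG sites in 102 introns passed. 107 of the 156 had at least 6 reads in prp18Δupf1Δ and 51 had as many in upf1Δ, so that many passed through prp18Δupf1Δ, and the counts of calls below describe the sites that passed. 16 sites stood at 6 gapped reads and 20 at 5. The 217 sites with fewer held 426 reads in all, and 132 of them were seen in prp18Δupf1Δ alone, 42 in upf1Δ alone and 43 in both.

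Use was measured as the fraction of annotated splicing (FAnS), the reads of the alternative junction divided by those of the annotated junction of the same intron, given here in percent. The second measure, splicing efficiency (SE), divides instead by annotated and unspliced reads together. FAnS of 69 BG sites in 56 introns rose in prp18Δupf1Δ and that of 2 fell (edgeR quasi-likelihood test, adjusted p under 0.05 over 884 alternative junctions). The 69 were 44.2% of the BG sites tested, where 21% of all alternative junctions and 32% of all 562 alternative 3′SS rose. The 2 that fell were 1.28%, against 10.7% of all alternative junctions and 7.65% of alternative 3′SS. Among the 406 alternative 3′SS tested that are not BG sites, 27.3% rose and 10.1% fell. By SE, 60 BG sites rose (38.5%; 16.7% of all alternative junctions) and 3 fell (1.92%; 13.8% of all), and the 60 all rose in FAnS as well. Without replicate 1 of both strains, 42 BG sites rose by FAnS and 32 by SE. In these bulk cultures a change in all cells and a larger change in some of them cannot be told apart.

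The 3 prp18Δupf1Δ libraries all lay above the 3 upf1Δ libraries at 73 BG sites (46.8%; 24.4% of all alternative junctions) and all below at 8 (5.13%; 18.8% of all). FAnS changed by a median of 1.79 on the log2 scale over the 124 tested sites that had reads in each strain, and the middle 50% of sites lay between 0.78 and 2.85. The same median was 3.39 over GAG sites, 0.63 over AAG sites, -0.05 over YAG sites, 0.31 over non-G sites and 0.25 over all alternative junctions. By SE the median over BG sites was 1.63, against 0.04 over all alternative junctions. The 28 sites seen in prp18Δupf1Δ alone and the 4 seen in upf1Δ alone have no ratio. With the 28 set at lower bounds, from a floor of 3 reads over the upf1Δ libraries, the FAnS median over 152 sites was 1.85. The 4 seen in upf1Δ alone were left out of this median, so it takes in bounds for rises only. The BG median thus lay below that of GAG sites and above those of the other classes listed. The classes differ in position, with 120 of 156 tested BG sites upstream of the annotated site, against 61 of 165 RAG and 27 of 125 YAG sites. Among upstream sites alone the median was 1.76 for BG, 1.66 for RAG, 0.93 for YAG and 0.89 for non-G sites. There 55 of 120 BG sites and 34 of 61 RAG sites rose, so upstream RAG sites were close to BG sites.

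The BG class as a whole took a larger share of alternative 3′SS reads without Prp18p. The tested BG sites held 11.4 ± 0.627 reads per 10000 annotated junction reads in prp18Δupf1Δ, against 3.07 ± 0.194 in upf1Δ (SD, n = 3 each). They made up 17.9 ± 0.880% of the reads at tested alternative 3′SS in prp18Δupf1Δ and 9.15 ± 0.0911% in upf1Δ. Every prp18Δupf1Δ library was above every upf1Δ library in both measures. RAG sites also took more, 30.3 reads per 10000 in prp18Δupf1Δ and 14.1 in upf1Δ, while YAG sites stood at 17.5 in prp18Δupf1Δ and 13.2 in upf1Δ and non-G sites at 4.67 in prp18Δupf1Δ and 3.24 in upf1Δ. The YAG share of alternative 3′SS reads was 27.5% in prp18Δupf1Δ and 39.4% in upf1Δ. A single site, RPS10B ACG, carried 320 of 1339 BG reads in replicate 1 of prp18Δupf1Δ. With RPS10B ACG, the BG site with the most reads over all 6 libraries, left out of every library, BG reads were 9.05 per 10000 in prp18Δupf1Δ and 2.81 in upf1Δ.

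**Figure D1:**
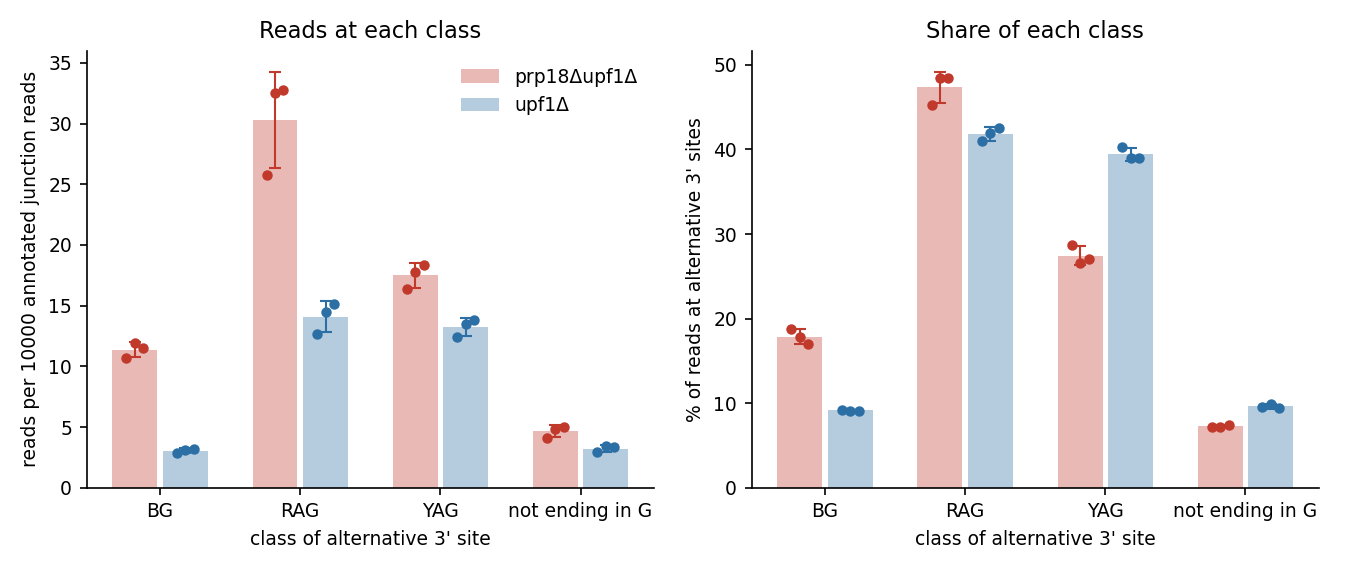
Reads at the 4 classes of tested alternative 3′SS, as reads per 10000 annotated junction reads (left panel) and as a percent of all reads at tested alternative 3′SS (right panel), for prp18Δupf1Δ (red) and upf1Δ (blue). Bars are means, points the 3 libraries and error bars SD, and the BG class stands at 11.4 per 10000 in prp18Δupf1Δ against 3.07 in upf1Δ.

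The sites with the highest use lay outside the ribosomal protein genes (RPGs). RAD14, which encodes a damage-recognition protein of nucleotide excision repair, was spliced to an ACG only 10 nt from the branchpoint and 18 nt upstream of its annotated CAG. This ACG had 21, 15 and 13 reads in prp18Δupf1Δ and 2, 1 and 0 in upf1Δ. FAnS was 36.7 ± 4.01% in prp18Δupf1Δ and 0.929 ± 0.918% in upf1Δ (SD, n = 3 each), a log2 change of 5.24 (edgeR adjusted p = 2e-10). The strains did not overlap.

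MUD1 encodes a protein of the U1 snRNP, the particle that binds the 5′SS. Its AUG, 25 nt past the branchpoint and 14 nt short of the annotated CAG, had 26, 16 and 19 reads in prp18Δupf1Δ against 0, 1 and 0 in upf1Δ. FAnS was 14.7 ± 2.29% in prp18Δupf1Δ and 0.0952 ± 0.165% in upf1Δ, a log2 change of 6.78 (edgeR adjusted p = 1.1e-12). Every prp18Δupf1Δ library lay above every upf1Δ library. All 73 gapped reads of this junction were placed by the aligner BBMap and none by STAR.

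MAF1, a repressor of RNA polymerase III that responds to nutrient and stress signals, used a CUG 11 nt from the branchpoint with 18, 34 and 22 reads in prp18Δupf1Δ and 5, 1 and 6 in upf1Δ. Its FAnS was 14.4 ± 3.03% in prp18Δupf1Δ and 0.852 ± 0.551% in upf1Δ, a log2 change of 4.03 (edgeR adjusted p = 6.9e-11). PHO85, a cyclin-dependent kinase of phosphate and nutrient signalling, used an ACG 10 nt from the branchpoint with 8, 10 and 5 reads in prp18Δupf1Δ and 0, 0 and 1 in upf1Δ. Neither gene's strains overlapped. The PHO85 ACG reached 1.8 ± 0.642% in prp18Δupf1Δ, so that its use was well under that of the MAF1 CUG although its log2 change, 4.22, was close to it. The other 2 BG sites of PHO85, an AUG and a UCG nearer to the annotated site, had 1 read each.

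YOS1, a protein of vesicle transport between the endoplasmic reticulum and the Golgi, used a UUG 8 nt from the branchpoint. It had 9, 5 and 6 reads in prp18Δupf1Δ and 0, 0 and 1 in upf1Δ (log2 change 4.07, edgeR adjusted p = 0.00045), without overlap. APE2, which encodes an aminopeptidase, had a UUG with 8, 8 and 10 reads in prp18Δupf1Δ and none in upf1Δ. Its FAnS was 5.91 ± 1.30% in prp18Δupf1Δ, at least 5.26-fold higher than in upf1Δ with a floor of 3 reads over the upf1Δ libraries.

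GCR1 and SPT14 show what low annotated counts allow. GCR1, the transcription activator of glycolytic and ribosomal protein genes, had 1, 2 and 2 reads at an AUG 11 nt from the branchpoint in prp18Δupf1Δ and none in upf1Δ. Its annotated junction had only 1, 1 and 9 reads in prp18Δupf1Δ and 4, 12 and 15 in upf1Δ, so that FAnS came to 107 ± 89.1% in prp18Δupf1Δ. The rise passed the test (edgeR adjusted p = 0.0066) and is bounded at 4.70-fold or more. The junction has 5 ambiguous bases, that is, bases by which it could be shifted without changing the read. SPT14, needed for glycosylphosphatidylinositol anchors, had no read at its UUG in prp18Δupf1Δ and 0, 1 and 3 in upf1Δ, beside 2, 4 and 1 annotated reads in prp18Δupf1Δ and 53, 79 and 90 in upf1Δ, and did not pass (edgeR adjusted p = 0.77).

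UBC12, the conjugating enzyme for the ubiquitin-like Rub1p, held 8 BG sites, 7 of them in or beside a run of G that begins 13 nt from the branchpoint. The 5 tested sites together had 11, 20 and 26 reads in prp18Δupf1Δ and 9, 15 and 15 in upf1Δ, or 20.4%, 26.0% and 40% of the annotated reads in prp18Δupf1Δ and 10.8%, 13.0% and 16% in upf1Δ. All 3 prp18Δupf1Δ libraries lay above those of upf1Δ in this summed share, which was not tested. The most used of them, a UGG at the start of the run, had a FAnS of 15.1 ± 3.70% in prp18Δupf1Δ and 8.63 ± 2.66% in upf1Δ and did not pass (edgeR adjusted p = 0.18). The next pair of GGG sites rose by log2 changes of 2.17 and 2.28 with overlapping strains (edgeR adjusted p = 0.037 and 0.04), calls that were each lost in 9 of the alternative settings. The UUG whose G opens the run, with no read in prp18Δupf1Δ and 2 in each upf1Δ library, fell by SE only. Each of the 5 tested junctions has 2 or 3 ambiguous bases, so that its placement rests on the annotated 5′SS being the one used.

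**Figure D2:**
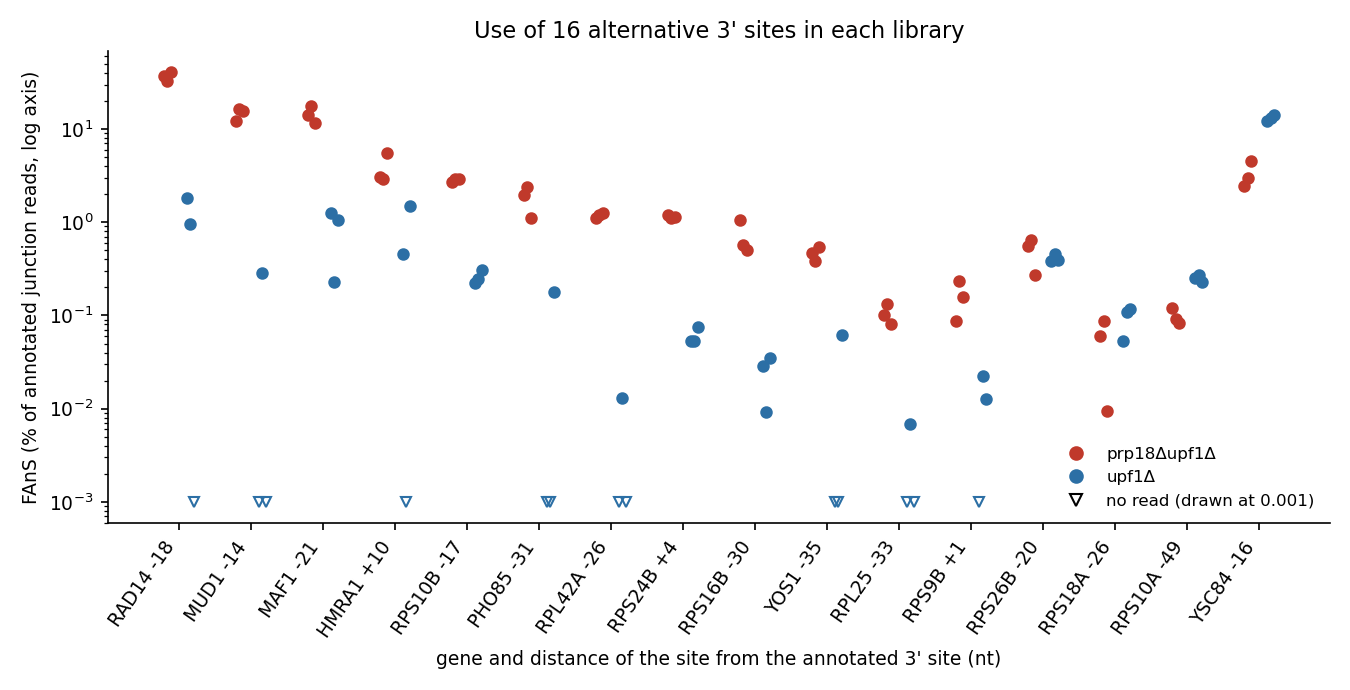
FAnS of 16 BG sites in each library on a log axis, prp18Δupf1Δ (red) left of upf1Δ (blue), with the site's distance from the annotated 3′SS beside the gene name. Open triangles at the bottom stand for libraries with no read, the 12 sites from RAD14 to RPS9B rose, RPS26B and RPS18A overlapped, and RPS10A and YSC84 fell.

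RPGs held 186 of the 373 sites and 85 of those tested, of which 31 rose and 1 fell. The other genes held 71 tested sites, of which 38 rose and 1 fell. Median changes were alike, 1.76 in RPGs and 1.90 in other genes on the log2 scale, but the level of use was not: the median FAnS in prp18Δupf1Δ was 0.0440% in RPGs and 0.656% in other genes, and in upf1Δ it was 0.0113% in RPGs and 0.0777% in other genes. RPGs are deeply sequenced, and a minimum of 6 reads admits a lower FAnS there than in a weakly expressed gene. Among the alternative 3′SS other than BG sites in RPGs, 37 of 182 rose and 26 fell, with a median of 0.10. In other genes 74 of 224 such sites rose and 15 fell, with a median of 0.91, nearer to that of the BG sites.

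The largest change of any BG site was in RPL42A, which encodes a protein of the large ribosomal subunit. Its ACG, 10 nt from the branchpoint and 26 nt upstream of the annotated UAG, had 70, 58 and 55 reads in prp18Δupf1Δ and 0, 1 and 0 in upf1Δ. FAnS was 1.19 ± 0.0834% in prp18Δupf1Δ and 0.00439 ± 0.00760% in upf1Δ, a log2 change of 7.55 (edgeR adjusted p = 6.8e-18). The strains stood far apart, and the 3 prp18Δupf1Δ libraries differed little among themselves. In its paralog RPL42B a UUG 6 nt before the annotated site had 16, 8 and 6 reads in prp18Δupf1Δ and 0, 0 and 1 in upf1Δ (log2 change 5.04, edgeR adjusted p = 2.9e-06).

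RPS16B, a small-subunit protein gene, used an ACG 11 nt from the branchpoint with 86, 34 and 28 reads in prp18Δupf1Δ and 3, 1 and 4 in upf1Δ (log2 change 4.79, edgeR adjusted p = 2e-13). RPL32 used a UUG that ends a run of U, with 10 U in the 10 nt before it, and had 23, 14 and 12 reads in prp18Δupf1Δ and 0, 1 and 2 in upf1Δ (log2 change 4.38). At neither site did the strains overlap. The RPS10B ACG, singled out after its values were seen because it had the most reads of all BG sites, had 320, 203 and 175 in prp18Δupf1Δ and 38, 33 and 44 in upf1Δ. Its FAnS was 2.83 ± 0.105% in prp18Δupf1Δ and 0.260 ± 0.0441% in upf1Δ, a log2 change of 3.45 (edgeR adjusted p = 3.7e-15). RPG paralogs share sequence, and the split of reads between copies depends on the aligners.

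Some BG sites with many reads did not pass, and their strains overlapped. RPS26B CUG had 11, 13 and 5 reads in prp18Δupf1Δ and 9, 13 and 13 in upf1Δ, with a FAnS of 0.491 ± 0.194% in prp18Δupf1Δ and 0.414 ± 0.0414% in upf1Δ. RPS18A CGG had 12, 11 and 1 in prp18Δupf1Δ and 11, 22 and 25 in upf1Δ. RPS6A UUG had 9, 5 and 10 in prp18Δupf1Δ and 8, 11 and 11 in upf1Δ. Last, the RPL31B UUG 17 nt upstream of the annotated site had 6, 1 and 6 in prp18Δupf1Δ and 8, 4 and 6 in upf1Δ. The edgeR adjusted p of these 4 sites was 0.26 to 0.72. Another UUG of RPL31B, 5 nt further downstream, rose by 1.98 on the log2 scale.

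The pair of sites that fell were used in upf1Δ cells at a level measurable in every library. YSC84, an actin-binding protein of endocytosis, used a UCG 24 nt from the branchpoint with 16, 12 and 15 reads in prp18Δupf1Δ and 56, 49 and 54 in upf1Δ. Its FAnS was 3.33 ± 1.08% in prp18Δupf1Δ and 13.1 ± 0.861% in upf1Δ, a log2 change of -2.04 (edgeR adjusted p = 2.3e-06), with no overlap. This was the highest mean FAnS of any tested BG site in upf1Δ. RPS10A CGG had 37, 21 and 17 reads in prp18Δupf1Δ and 75, 88 and 74 in upf1Δ, with a FAnS of 0.0985 ± 0.0205% in prp18Δupf1Δ and 0.250 ± 0.0225% in upf1Δ (log2 change -1.33, edgeR adjusted p = 0.0056). The call was lost with DESeq2 and without prp18Δupf1Δ replicate 3, and all 348 gapped reads of this junction came from BBMap. The ACG that ends 1 nt before it had 7, 4 and 2 reads in prp18Δupf1Δ and none in upf1Δ, and rose (edgeR adjusted p = 0.0012).

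Grouped by the middle letter, 17 of 31 tested sites ending CG rose and 1 fell, 16 of 47 ending GG rose and 1 fell, and 36 of 78 ending UG rose and none fell. The medians of the log2 change were 1.94, 1.72 and 1.85, in that order, a span smaller than the range within any of the 3 groups. The letter before these showed a wider span. Of the 67 tested sites beginning with A, 37 rose, with a median of 2.09, and of the 67 beginning with U, 22 rose, with a median of 1.55. Of the 13 beginning with C, 4 rose and 1 fell, with a median of 0.73. Of the 9 beginning with G, 6 rose, and the 5 with reads in each strain had a median of 2.32.

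By trinucleotide, ACG sites rose in 15 of 21 cases with a median log2 change of 2.65, the largest share among trinucleotides with at least 3 tested sites. AUG sites rose in 13 of 23 cases, AGG in 9 of 23, UUG in 18 of 45 with a median of 2.23, and UGG in 3 of 14 with a median of 0.90. UCG sites had 1 rise and 1 fall among 8, with a median of -0.55, and CGG sites had no rise and 1 fall among 3. The 2 tested GUG sites both rose, as did 4 of 7 GGG sites. GCG was listed at 6 sites, none with enough reads for a test. Both sites that fell thus ended in UCG or CGG, in sets of 8 and 3 sites.

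To see how often a possible BG site was used, all BG trinucleotides from 8 nt past the branchpoint to 50 nt past the annotated 3′SS were counted in 281 annotated introns. Of 2665 such trinucleotides, 151 (5.67%) were tested sites. Between branchpoint and annotated site 117 of 782 (15%) were tested sites, and more than 1 nt past the annotated site 12 of 1811 (0.66%). Upstream, ACG stood first with 19 of 52 (36.5%), followed by GGG with 7 of 29 (24.1%), UUG with 41 of 218 (18.8%) and UGG with 10 of 54 (18.5%). CGG followed with 3 of 18 (16.7%) and AUG with 20 of 148 (13.5%). GUG was used at 2 of 65 (3.08%), AGG at 1 of 28 (3.57%) and GCG at 0 of 23. Among the 472 trinucleotides under 30 nt from the branchpoint, ACG was still first with 17 of 29 (58.6%), against 104 of 472 (22%) over all. These shares count sites with at least 6 gapped reads summed over all libraries and are not rates of use.

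Most BG sites lay upstream of the annotated site and close to the branchpoint. Upstream, 120 sites were tested, of which 55 rose and 2 fell, with a median of 1.76. Distances are counted from the branch adenosine to the G of the site. The 4 tested sites under 10 nt all rose, RPL25 ACG and YOS1 UUG at 8 nt and RPL29 AUG and RPS17B UUG at 9 nt, with a median log2 change of 4.48 over the 3 seen in both strains. Rises this close to the branchpoint were also found in the other classes that end in G, with 13 of 14 tested RAG sites (median 3.73) and 7 of 7 tested YAG sites (median 3.40). Among BG sites from 10 to 19 nt 35 of 72 rose (median 2.12), from 20 to 29 nt 15 of 41 rose and 2 fell (median 1.57), from 30 to 49 nt 9 of 25 rose (median 1.90) and from 50 nt 6 of 14 rose (median 1.40). RPL25 ACG had 14, 14 and 8 reads in prp18Δupf1Δ and 0, 1 and 0 in upf1Δ, a log2 change of 5.02 (edgeR adjusted p = 2.7e-06). RPL29 AUG had 17, 9 and 8 in prp18Δupf1Δ and 2, 1 and 5 in upf1Δ, a smaller change of 2.57. Both encode large-subunit proteins, and neither overlapped between strains in FAnS. A further 8 sites under 10 nt had too few reads for a test, with at most 3 reads each in prp18Δupf1Δ and 1 each in upf1Δ.

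**Figure D3:**
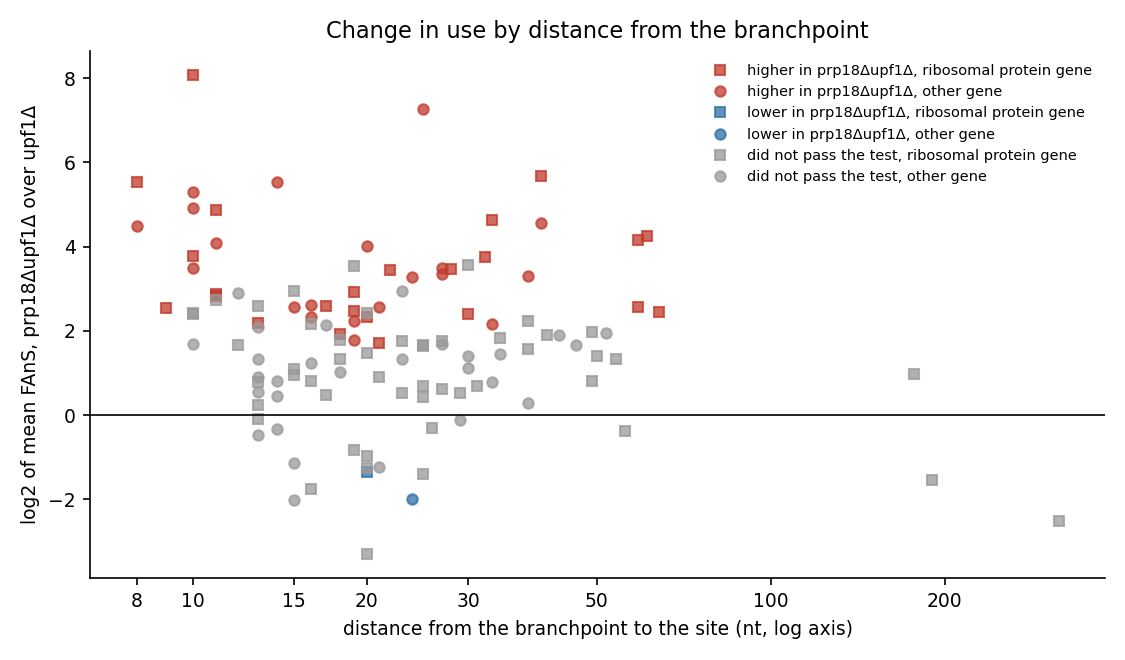
Log2 of mean FAnS in prp18Δupf1Δ over mean FAnS in upf1Δ (vertical axis) against the distance from branchpoint to site in nt (horizontal log axis) for the 124 tested BG sites seen in both strains, with squares for RPGs and circles for other genes. Red sites rose, blue sites fell and grey sites did not pass, and the 3 sites under 10 nt all lie above 2.5.

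The share of possible upstream sites that were tested sites was highest from 10 to 19 nt, 69 of 250 (27.6%), and lower at each greater distance, 31 of 183 (16.9%), 10 of 149 (6.71%) and 3 of 161 (1.86%). Under 10 nt it was 4 of 39 (10.3%). The order from 10 nt outward was the same within RPGs (36.8%, 25.7%, 7.41% and 3.28%) and within other genes (22.7%, 11.0%, 6.32% and 1.00%). No AG lay between the branchpoint and the site in 106 of the 120 upstream sites. Downstream sites lie past the annotated AG or, 1 nt downstream, contain it. An AG that overlaps the site was not counted, so the 20 of 36 downstream sites without a counted AG are not sites free of the annotated AG.

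A U-rich stretch was found more often before used sites. Upstream trinucleotides with 0 to 2 U in the preceding 10 nt were tested sites in 25 of 214 cases (11.7%), those with 3 to 4 U in 39 of 306 (12.7%), those with 5 to 6 in 35 of 188 (18.6%) and those with 7 or more in 18 of 74 (24.3%). Tested upstream sites had 4.28 U on average and unlisted upstream trinucleotides 3.57. Under 30 nt from the branchpoint the shares were 17.2%, 19.6%, 25.9% and 34.8%. In RPGs there, the share was 31.8% with 3 to 4 U and 30.2% with 5 to 6 U, so the increase was not steady in each gene class. The change between strains did not follow the U count in the same way, since 14 of 29 tested sites with 0 to 2 U rose, 21 of 53 with 3 to 4, 24 of 48 with 5 to 6 and 10 of 26 with 7 or more, with medians of 1.78, 1.68, 2.14 and 1.76.

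The base after the site differed as well. A was the next base at 52.1% of the 117 tested upstream sites and at 28.3% of the 541 upstream trinucleotides that were not listed. Under 30 nt from the branchpoint, 56 of 166 trinucleotides followed by A were tested sites (33.7%), against 48 of 306 followed by another base (15.7%). The same held for each letter at the start of the trinucleotide in this range, with 36.9% against 16% for A, 35.7% against 9.26% for C, 23.8% against 9.30% for G and 33.3% against 20.1% for U. Among the 59 upstream sites whose position has no ambiguous base, A followed 66.1%. A site followed by G, which is also the first base of the intron, counts as ambiguous, so this filter by itself raises the share of A. The unlisted trinucleotides were not filtered in this way, and their share is no like comparison for this value.

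**Figure D4:**
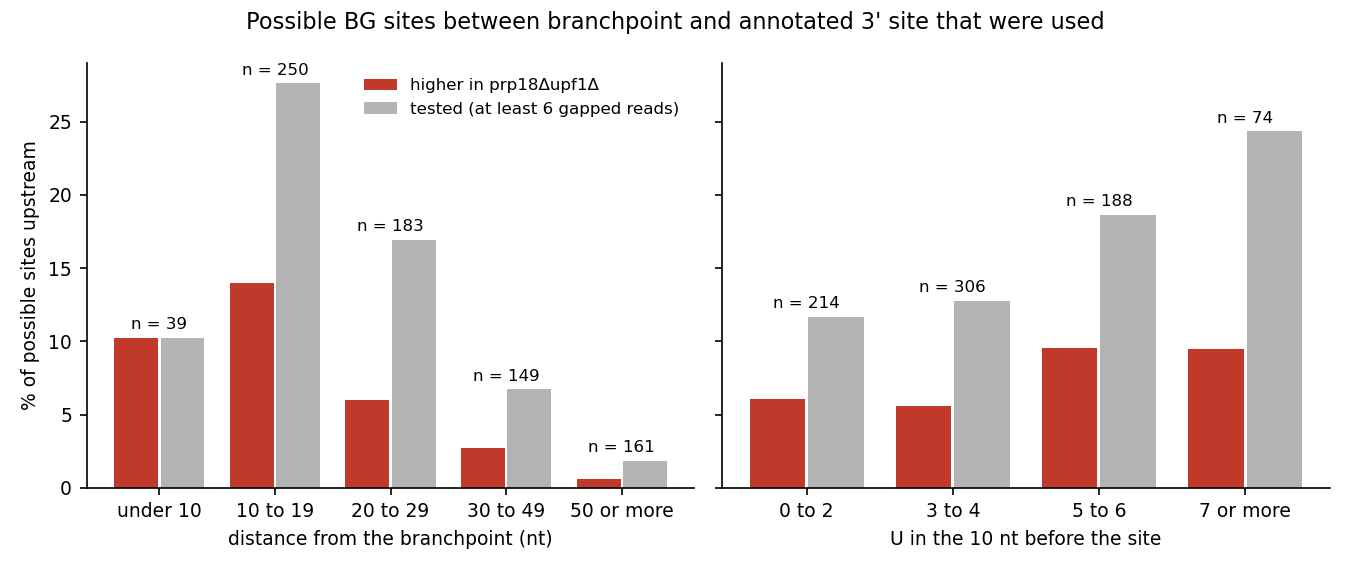
Percent of BG trinucleotides between branchpoint and annotated 3′SS that were sites higher in prp18Δupf1Δ (red) or tested sites (grey), by distance from the branchpoint (left) and by U in the 10 nt before the site (right), with n the number of trinucleotides. Tested sites make up 27.6% at 10 to 19 nt and 1.86% at 50 nt or more, and 11.7% with 0 to 2 U and 24.3% with 7 or more.

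Where the exon begins with G, a shift by 1 nt turns an annotated UAG or CAG into an AGG that ends 1 nt downstream. This arrangement was found in 72 introns, of which 42 listed the shifted junction and 22 had enough reads, 18 of them in RPGs. Of the 22, 8 rose and none fell, the strains did not overlap at 11, all higher in prp18Δupf1Δ, and the median log2 change was 1.87 over the 20 seen in both strains. The exon begins with another base in the remaining 209 introns, where a shift by 1 nt gives a 3′SS that does not end in G. Of these, 22 were also tested, with 239 reads in prp18Δupf1Δ and 322 in upf1Δ, and none rose or fell by edgeR or by DESeq2 (1 had an unadjusted edgeR p under 0.05). Their median log2 change was 0.03. The AGG sites had 252 reads in prp18Δupf1Δ and 77 in upf1Δ. The difference between the 2 kinds of shift is given as a description of these medians.

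RPS9B AGG, which follows a run of U and contains the annotated UAG, had 12, 31 and 18 reads in prp18Δupf1Δ and 0, 5 and 3 in upf1Δ (log2 change 3.54, edgeR adjusted p = 1.7e-06). RPS0B AGG had 13, 9 and 17 in prp18Δupf1Δ and 5, 4 and 4 in upf1Δ (2.45, edgeR adjusted p = 0.00018), and RPP1B AGG, in a gene for an acidic protein of the ribosomal stalk, had 5, 7 and 5 in prp18Δupf1Δ and 0, 0 and 2 in upf1Δ (3.70, edgeR adjusted p = 0.00089). None of these 3 overlapped in FAnS. Use stayed low, with mean FAnS of 0.16%, 0.168% and 0.0401% in prp18Δupf1Δ against 0.0118%, 0.0318% and 0.00226% in upf1Δ. RPS17A AGG had 12, 2 and 2 reads in prp18Δupf1Δ and 1 in each upf1Δ library (edgeR adjusted p = 0.011), but 4 ambiguous bases and BBMap reads alone, and it did not pass without replicate 1 of either strain.

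**Figure D5:**
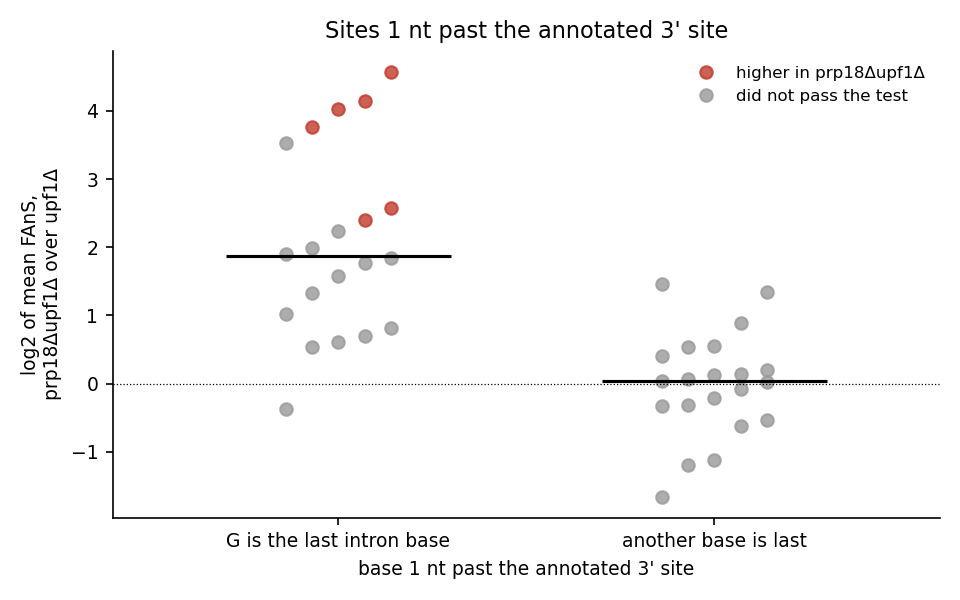
Log2 of mean FAnS in prp18Δupf1Δ over upf1Δ for tested sites 1 nt past the annotated 3′SS seen in both strains, where G (left, 20 sites) or another base (right, 21 sites) becomes the last intron base. Red points rose and grey points did not pass, and the horizontal lines are the medians, 1.87 and 0.03.

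Further downstream 14 sites were tested, of which 6 rose. RPS24B, a small-subunit gene, used a CUG 4 nt past the annotated UAG with 45, 37 and 30 reads in prp18Δupf1Δ and 4, 5 and 7 in upf1Δ. FAnS was 1.14 ± 0.0433% in prp18Δupf1Δ and 0.0603 ± 0.0126% in upf1Δ, a log2 change of 4.20 (edgeR adjusted p = 2.6e-14), with no overlap. HMRA1 UGG, 10 nt past the annotated site, had 8, 18 and 30 reads in prp18Δupf1Δ and 1, 0 and 4 in upf1Δ (log2 change 2.73, edgeR adjusted p = 0.00049), all 73 gapped reads from BBMap. BY4741 is a MATa strain while the reference genome carries the alpha allele at MAT, so reads of the mating-type gene a1 are placed on its silent copy HMRA1.

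Of the 156 tested sites, 145 lie in introns between coding exons, and 117 of these would shift the reading frame, 50 of which rose. Of the 28 that keep the frame, 13 bring in a stop codon before the annotated one. Of these 13, 6 rose, RAD14 ACG, MAF1 CUG and RPS16B ACG among them. The other 15 would give a protein with residues added or removed, of which 7 rose, including RPL25 ACG, RPL42B UUG and an ACG of SEC17, a vesicle fusion factor chosen here after its values were seen. The remaining 11 sites lie in introns that are not flanked by coding sequence on each side, and 6 of them rose. Over all tested BG sites 44.2% rose, and nothing about coding effect was read from the rises in these groups. The coding effect was read from the annotation and no protein was measured.

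Host genes were grouped by function. Of spliceosome and RNA processing genes, 5 sites were tested and 3 rose (GCR1, LSM7 and MUD1). Ubiquitin and proteasome genes had 5 rises among 11 (UBC12, UBC4, UBC8 and UBC9), vesicle traffic and vacuole genes 6 among 15 (SEC14, SEC17 and YOS1), actin, tubulin and motor genes 2 among 4 (ARP2 and TUB1), kinase and signalling genes 2 among 4 (MAF1 and PHO85) and mitochondrial genes 1 among 3 (COX4). Meiosis genes had no tested site. YSC84, whose UCG fell, is in none of these lists. The shares lie close to the 44.2% of all BG sites tested, and with these numbers nothing particular to a list was read from them.

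Reads were placed by a pair of aligners. Of 5714 gapped reads at tested BG sites, 72.5% were placed by both BBMap and STAR, 14.1% by BBMap alone and 13.4% by STAR alone, against 69.6%, 19.2% and 11.2% at the other alternative 3′SS tested. 12 BG sites, MUD1 AUG, HMRA1 UGG, RPS10A CGG and RPS17A AGG among them, had no STAR read. No mismatch lay within 10 nt of the junction in 98.6% of the reads at BG sites. The junction could be shifted by at least 1 base at 78 of the 156 sites, and 35 of the other 78 rose. In 153 of the 156 the branchpoint assigned to the BG site was that of the annotated site, and 38 had another tested alternative 3′SS within 2 nt.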

How the data were processed

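Poly(A) RNA-seq junction tables of 6 libraries were used. Per the labels and the study's methods, the authors trimmed reads with cutadapt 1.18, aligned them with STAR 2.7.0d and BBMap to R64, merged the junctions, and deposited junction read counts, estimated counts of unspliced reads, fractions (SE) and ratios (FAnS). The deposited counts were taken as given, and FAnS and SE were recomputed from them. Testing required 6 or more gapped reads per site, all libraries summed, and at least 50% of them free of mismatches within 10 nt. edgeR 4.0.16 (R 4.3.3) fitted 2 counts per library, the alternative junction and its annotated junction (for SE, plus unspliced reads, rounded), with a term per library and a strain by junction term, and Benjamini-Hochberg adjustment over 884 junctions. Alternatives were DESeq2 1.42.0, an offset fit, other filters, a replicate block and left-out libraries. On simulated data for this comparison, with 884 junctions, the test called 0 of 684 unchanged junctions, 9 of 100 changed 2-fold and 23 of 100 changed 4-fold (20 of 32 with at least 20 reads), so that counts limit the calls. Intervals of counting error were not computed. All 5274 junctions matched R64 in sequence. Sites to be named were chosen as all BG sites of genes for which the study names one, the largest rises and falls without overlap and with at least 20 reads, the highest FAnS, the sites nearest the branchpoint, the most-read sites 1 nt downstream and the most-read sites that did not pass. The sites and gene lists were chosen with earlier results of these data known.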

Additional observations from a re-analysis of the deposited data

Results flagged for a closer look

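BG sites with fewer than 6 gapped reads entered no test of the main fits, yet their reads also differed between the strains. Their 217 junctions held 117, 106 and 85 reads in prp18Δupf1Δ and 39, 43 and 36 in upf1Δ. Per 10000 annotated junction reads this came to 0.935, 1.177 and 1.07 in prp18Δupf1Δ and 0.289, 0.301 and 0.240 in upf1Δ, or 1.06 ± 0.121 and 0.277 ± 0.0327 (SD, n = 3 each), with no overlap. They were picked out because the main tests did not use their reads, which stood above the level in the strain with Prp18p. A site is listed only through reads in some library, and 132 of these were seen in prp18Δupf1Δ alone against 42 in upf1Δ alone. The higher reads may therefore follow in part from how the sites were listed. The same sums were not made for the other classes. Their reads are part of the first counts given over all BG sites, and most of these sites entered the alternative fit with no minimum of reads. The difference was not tested.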

How the results depend on the processing

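The counts of BG sites that rose, 69 by FAnS and 60 by SE, were 55 and 51 with DESeq2, 63 and 54 without the mismatch filter, 65 and 57 among sites with STAR reads and 50 and 45 with no minimum of reads (371 sites tested). They fell to 38 and 38 with at least 20 gapped reads (59 sites tested), to 32 and 29 without ambiguous bases (78 sites tested) and to 42 and 32 without replicate 1 of both strains. Fewer sites or fewer libraries enter these settings, and in the last a loss of libraries and an effect of replicate 1 cannot be told apart. The share of tested sites that rose thus varies with the minimum of reads. It was not set beside the share of all alternative junctions under these settings. Leaving out 1 library at a time gave 50 to 66 rises and 1 to 2 falls by FAnS, and 44 to 54 rises and 2 to 3 falls by SE. Falls by FAnS numbered 1 with DESeq2, with STAR reads required and without ambiguous bases, and falls by SE numbered 1 without ambiguous bases. With the replicate number as a block, 60 rose and 2 fell by FAnS and 55 rose and 2 fell by SE. Deviations of same-numbered libraries correlated at 0.15, 0.15 and -0.01 over 235 sites, and those of differently numbered ones at -0.18 to 0.04. With 3 libraries per strain, correlations this weak cannot decide whether the numbers pair the libraries. The median log2 change of FAnS, 1.79, was 1.59 with no minimum of reads, 2.23 with at least 20, 2.02 without ambiguous bases and 1.70 without replicate 1 of both strains, and 1.56 to 1.94 with 1 library left out. Without RPS10B ACG, the most-read BG site, an alternative chosen after seeing the data, BG reads per 10000 were 9.05 in prp18Δupf1Δ and 2.81 in upf1Δ. Of the 23 named sites that passed by FAnS, 4 lost the call when 1 library was left out, RPS10A CGG without prp18Δupf1Δ replicate 3, RPS17A AGG without replicate 1 of either strain, and both UBC12 GGG sites without several libraries. RPS10A CGG, RPS17A AGG and the UBC12 GGG sites also lost it with DESeq2, the UBC12 GGG sites with no minimum of reads, without the mismatch filter and with the replicate block as well, and GCR1 AUG without replicate 1 of both strains. The direction turned for SPT14 UUG by FAnS with the offset fit (-2.69) and for RPS26B CUG by SE without prp18Δupf1Δ replicate 3 or upf1Δ replicate 2 (range -0.26 to 0.25 with 1 library left out), none of which passed a test, and the cause was not tested. At fewer than 20 reads a 4-fold change was mostly not called on simulated data, so BG sites that did not pass cannot be taken as unchanged.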
